A study of Mus musculus with 12 samples.

Results

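The genes described here are 37 lysosomal genes of the mouse, named in a fixed list and matched by symbol to the rows of a table of 22416 genes. They encode proteases, glycosidases, sulfatases and lipid-degrading enzymes, soluble activators, membrane proteins, and the transcription factors Tfeb and Tfe3. All 37 were found, and 36 had enough counts to be tested, against 13229 tested genes in all. The remaining one, the protease Ctsh, had 0.124 to 1.22 CPM (counts relative to library size after TMM scaling) in the 11 samples.

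The RNA came from cultured mouse embryonic stem cells, with 2 genotypes crossed with 2 media. The knock-in (KI) cells are homozygous for the eIF2α A/A allele, in which the serine phosphorylated by stress kinases is replaced by alanine, and the wild-type (WT) cells carry eIF2α+/+. Both spent 6 days in a medium without serum, holding leukaemia inhibitory factor (LIF) either alone or with the MEK inhibitor PD0325901 and the GSK3 inhibitor CHIR99021 (LIF/2i). The 4 groups were KI cells in LIF, WT cells in LIF, KI cells in LIF/2i and WT cells in LIF/2i, with 3 libraries each. The labels do not say whether a genotype is 1 clone or several, or whether replicates were separate cultures, so the p-values rest on variation among libraries that may be technical.

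Lysosomes are acidic organelles in which hydrolases break down proteins, sugars and lipids delivered by endocytosis and autophagy. Many of their genes are switched on together by Tfeb, Tfe3 and their relative Mitf, which bind the sequence CACGTG in promoters and are held in the cytoplasm when mTORC1 is active on the lysosome surface. In mouse embryonic stem cells, nuclear Tfe3 is known to hold the naive state, and its move to the cytoplasm accompanies exit from it. Transcript counts show how much RNA of these factors is present, not where the proteins are.

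Libraries held 2307219 to 9713857 counts, with the smallest library in the KI LIF group, whose floor of 3 counts is 1.3 CPM. The counts of WT LIF replicates 1 and 3 were no further apart than sampling noise (chi-square per degree of freedom 0.858), and the pair was counted as 1 sample, so WT cells in LIF had n = 2 and each other group n = 3. The 10 pluripotency markers examined were present in every group, with summed levels of 3010 to 4760 CPM. Y-linked transcripts summed to 1.51 to 42.2 CPM in KI samples and 46.2 to 276 CPM in WT samples, so the mutation cannot be told apart from other differences between the KI and WT cells. Of 8 markers of macrophages, which are rich in lysosomes, 2 were tested and 0 called by medium or genotype; Lyz2 was at 0 in every group and Ptprc and Adgre1 reached at most 0.231 CPM as group means. Their sum was 11.1 to 24.1 CPM in KI cells in LIF, mostly Itgam, and 4.7 and 5.7 CPM in WT cells in LIF, against 3.45 to 7.89 CPM in KI and 4.8 to 5.47 CPM in WT cells in LIF/2i.

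The promoters of lysosomal genes are known for the sequence that Tfeb and its relatives bind, and it was looked for in those of the members. RefSeq promoter windows (GRCm38.p6, 250 bases before to 50 after the start) were found for 33 of the 37 members. CACGTG, which reads the same on both strands, stood in the windows of 11 of the 33, or 33.3%, against 8.09% of all 27025 genes with a window and 11.9% of those tested. The longer form GTCACGTG, searched on both strands and containing the first motif, stood in 8 of the 33, or 24.2%, against 2.55% of all genes with a window and 4.8% of those tested. The palindrome that joins GTCACGTG to its reverse complement stood in 0 of the 33, against 0.37% of all genes with a window and 0.767% of those tested. A match in these letters is a description and does not show binding. Stretches of 6 windows are shown, from Lamp1, which had more copies of the motif than any other member, from the enzyme genes Glb1, Ctsf, Ctsa and Arsa, whose transcripts changed with the medium, and from Mcoln1, a lysosomal calcium channel and known Tfeb target. Each is written 5′ to 3′ on the strand of the gene, with CACGTG in capitals.
Lamp1: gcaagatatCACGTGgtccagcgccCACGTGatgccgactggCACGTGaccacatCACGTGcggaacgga
Glb1: tgcttctgagtCACGTGgcctacagaggct
Ctsf: accccgtggtcCACGTGcctcgcgtaaata
Ctsa: tgagcaaactgtCACGTGatgcagatgct
Arsa: caactcagtgtCACGTGttgtctgctcct
Mcoln1: tgtCACGTGttcagttcaggcgccccgctc
The Lamp1 stretch covers the 70 bases before its start (chr8:13159091-13159160, plus strand) and holds 4 copies. The Glb1 and Ctsf stretches lie upstream of their starts (chr9:114401019-114401048 and chr19:4855075-4855104, both plus strand). The Ctsa stretch spans the later of its RefSeq starts (chr2:164833749-164833777, plus strand). The Arsa stretch spans its start (chr15:89477423-89477451, minus strand), and the Mcoln1 stretch lies just upstream of its RefSeq start (chr8:3500445-3500474, plus strand). The Mcoln1 window held 2 copies, and the second begins at the last base of the stretch shown, so only the first is in capitals. The Ctsa, Arsa and Mcoln1 stretches overlap exons of GENCODE transcripts, and the other 3 do not.

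Per kilobase of coding sequence, which allows genes to be compared, members spanned a wide range in WT cells in LIF/2i. The cholesterol carrier Npc2 stood highest at 450 CPM per kilobase, followed by Psap at 397, Lamp1 at 364, Ctsd at 359 and Ctsl at 308. Tfe3 and Tfeb, as transcription factors, stood at 33.1 and 31.3 CPM per kilobase. The sulfatases were among the lowest of the tested members, with Ids at 11.6, Arsa at 4.89, Sgsh at 3.5 and Arsb at 2.1, beside the lipid enzymes Lipa at 10.5 and Smpd1 at 9.41. No coding length was available for Gla, the α-galactosidase of globotriaosylceramide. Together the 37 members took 0.313% to 0.381% of counts in KI cells in LIF and 0.423% and 0.448% in WT cells in LIF, against 0.445% to 0.452% in KI cells in LIF/2i and 0.5% to 0.569% in WT cells in LIF/2i. The share was thus lower in LIF than in LIF/2i within each genotype, and lower in KI than in WT cells within each medium, with no overlap between samples in any of these 4 pairs.

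The comparison of LIF with LIF/2i sets cells without the MEK and GSK3 inhibitors against cells with them. In KI cells 9 of the 36 tested members fell and 0 rose, or 25% lower, against a background of 9.05% of all tested genes called, 5.00% lower and 4.05% higher (edgeR's quasi-likelihood test, p-values adjusted over all genes by Benjamini-Hochberg). In WT cells 9 fell and 1 rose, or 25% lower and 2.78% higher, against 13.0% of all genes called, 6.65% of all genes lower and 6.30% higher. The median log2 fold change of the members was -0.33 in KI and -0.35 in WT cells, against -0.03 and 0.01 over all tested genes. In both genotypes 7 genes fell, the proteases Ctsa, Ctsb and Ctsc, the glycosidases Glb1 and Hexa, and the soluble proteins Npc2 and Grn.

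**Figure D1:**
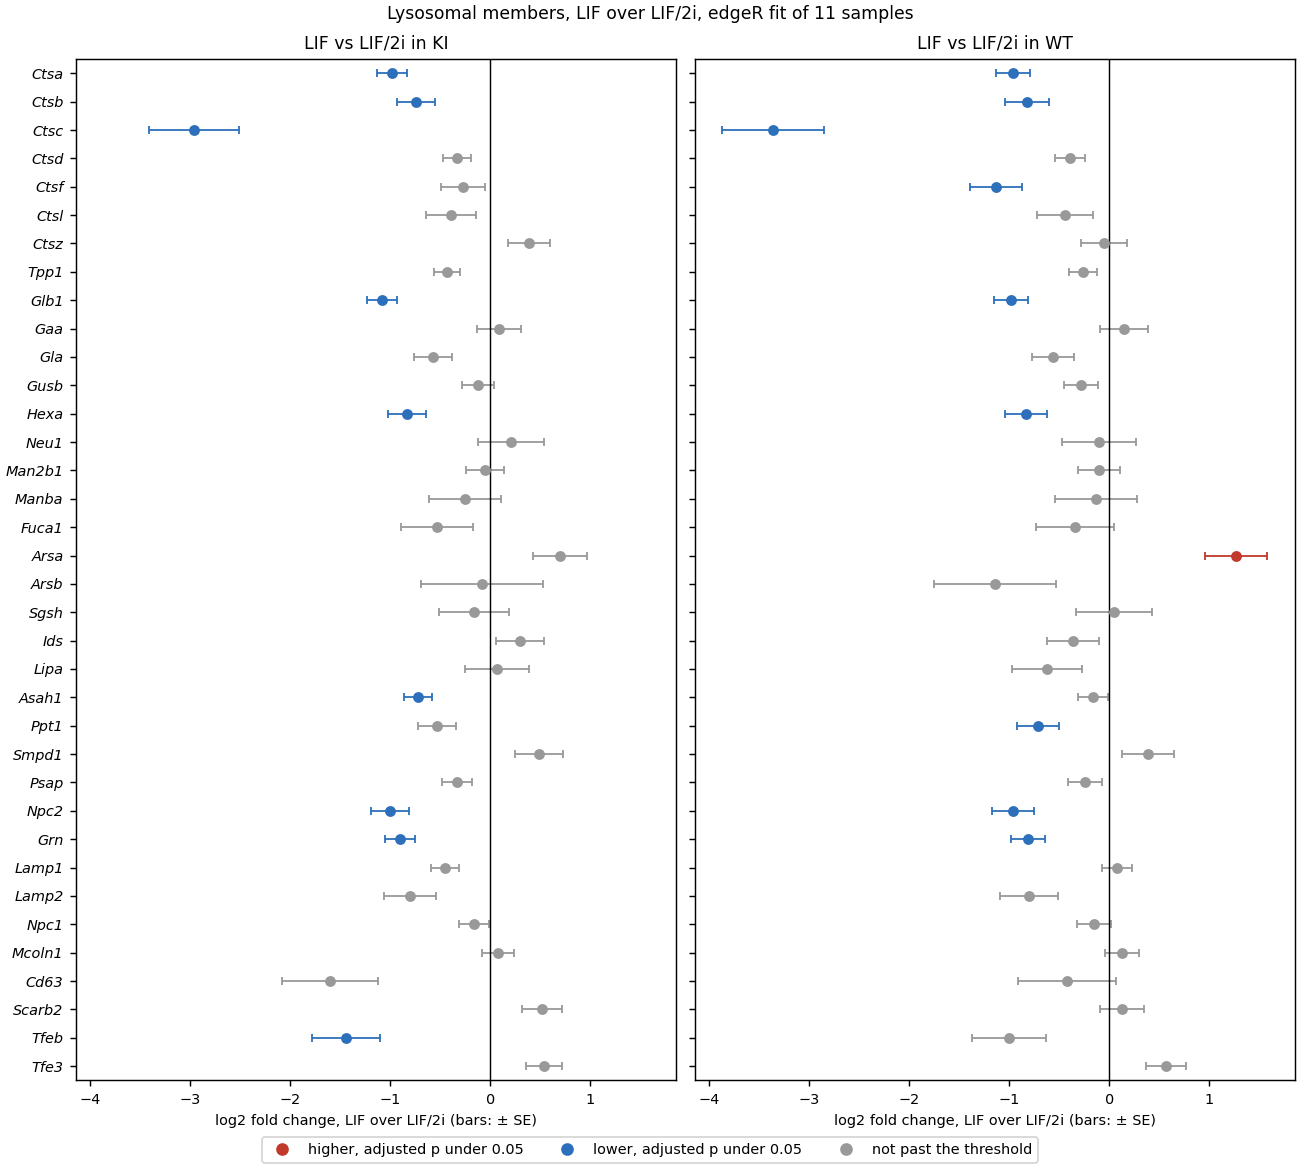
Log2 fold change of each tested member in LIF over LIF/2i, in KI cells on the left and WT cells on the right, with bars of 1 SE from the edgeR fit. Blue points passed adjusted p under 0.05 as lower and red as higher. Ctsc lies farthest left in both panels, at -2.96 in KI and -3.36 in WT, and Arsa is the red point in WT cells.

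Among the proteases, Ctsc, a dipeptidyl peptidase that activates other proteases by trimming them (chromosome 7, 88278085 to 88310888, GRCm38), showed the largest change of any member. It was at 6.58, 13.3 and 7.19 CPM in KI cells in LIF and 8.78 and 8.79 CPM in WT cells in LIF, against 121, 41.5 and 58.1 CPM in KI cells in LIF/2i and 118, 99.3 and 52.6 CPM in WT cells in LIF/2i. The LIF and LIF/2i samples did not overlap, and the LIF/2i libraries varied among themselves by more than the LIF ones. The log2 fold change was -2.96 ± 0.45 (SE, edgeR adjusted p = 0.00228) in KI cells and -3.36 ± 0.51 (adjusted p = 0.00228) in WT cells. Both calls held under every alternative run, including the leaving out of any 1 library.

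Ctsa, a carboxypeptidase that also shields β-galactosidase and sialidase in a complex, was at 118, 120 and 89.7 CPM in KI cells in LIF and 130 and 164 CPM in WT cells in LIF. In LIF/2i it was at 188, 223 and 238 CPM in KI and 268, 301 and 292 CPM in WT cells. Its log2 fold change was -0.98 ± 0.15 in KI (SE, edgeR adjusted p = 0.00276) and -0.96 ± 0.17 in WT cells (adjusted p = 0.00463). Its partner Glb1, the β-galactosidase, was at 124, 106 and 96.1 CPM in KI and 126 and 89.1 CPM in WT cells in LIF, against 218, 241 and 231 CPM in KI and 209, 207 and 223 CPM in WT cells in LIF/2i. The log2 fold changes of Glb1 were -1.08 ± 0.15 (edgeR adjusted p = 0.00138) and -0.98 ± 0.17 (adjusted p = 0.00382). In WT cells Glb1 missed the threshold once WT LIF replicate 2 was left out (edgeR adjusted p = 0.0622). The third protein of that complex, the sialidase Neu1, was not called in either genotype, with log2 values of 0.21 ± 0.33 and -0.10 ± 0.37.

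The other proteases split. The cysteine protease Ctsb fell by 0.74 ± 0.19 on the log2 scale in KI (SE, edgeR adjusted p = 0.035) and 0.82 ± 0.22 in WT cells (adjusted p = 0.0294). It was at 82 to 108 CPM in KI and 76.5 and 117 CPM in WT cells in LIF, against 129 to 178 CPM in KI and 146 to 196 CPM in WT cells in LIF/2i. Its call was lost without any of 5 KI libraries in the KI comparison and without WT LIF/2i replicate 1 or 2 in the WT comparison. The KI call was also lost with limma-voom (adjusted p = 0.0518) and with library totals in place of TMM scaling (edgeR, 0.0546). Ctsf, another cysteine protease, was at 11.2 and 8.19 CPM in WT cells in LIF against 25.4, 17.3 and 20.7 CPM in LIF/2i (log2 -1.13 ± 0.26, edgeR adjusted p = 0.0143), but at 16.6, 16.3 and 16.1 CPM in KI cells in LIF against 17.4, 22.5 and 19.3 CPM in LIF/2i (-0.27 ± 0.22, adjusted p = 0.514). The test of that difference between genotypes was not past the threshold (0.85 ± 0.34, edgeR adjusted p = 0.815). The WT call of Ctsf was lost without WT LIF/2i replicate 1 or WT LIF replicate 2. The abundant proteases Ctsd and Ctsl were not called by edgeR, with log2 values of -0.33 and -0.39 in KI and -0.39 and -0.44 in WT cells, nor were Tpp1 (-0.43 and -0.26) and Ctsz (0.39 and -0.05). DESeq2 called Tpp1 lower in KI cells (-0.40, adjusted p = 0.0354), as did edgeR with 12 separate libraries (0.0364), which also called Ctsd lower in WT cells (0.0332). The fit of 12 libraries takes the agreeing WT LIF pair as separate samples. Ctsd ranged over 276 to 362 CPM in KI and 329 to 343 CPM in WT cells in LIF, against 351 to 447 CPM in KI and 429 to 463 CPM in WT cells in LIF/2i. Ctsl ranged over 112 to 281 CPM in KI and 208 to 247 CPM in WT cells in LIF, against 241 to 291 CPM in KI and 270 to 338 CPM in WT cells in LIF/2i, so that for both proteases the media overlapped in KI and not in WT cells.

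Among the other hydrolases, Hexa, the α subunit of the enzyme that degrades GM2 ganglioside, fell in both genotypes. It was at 71.7, 110 and 88.4 CPM in KI and 138 and 164 CPM in WT cells in LIF, against 138, 168 and 176 CPM in KI and 247, 326 and 234 CPM in WT cells in LIF/2i. The log2 fold change was -0.83 in each (SE 0.19 and 0.21, edgeR adjusted p = 0.0173 in KI and 0.0213 in WT cells). The KI call was lost without KI LIF/2i replicate 3 or KI LIF replicate 1 or 3, and the WT call without WT LIF/2i replicate 2 or WT LIF replicate 2. Gm2a, the activator that presents the lipid to this enzyme, fell in WT cells by 1.18 ± 0.30 (edgeR adjusted p = 0.0249).

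Asah1, the acid ceramidase, fell in KI cells, with 122, 153 and 124 CPM in LIF against 211, 197 and 248 CPM in LIF/2i (log2 -0.72 ± 0.14, edgeR adjusted p = 0.00868), although without KI LIF replicate 3 it was no longer called. In WT cells it was at 247 and 207 CPM in LIF and 251, 264 and 244 CPM in LIF/2i, where the groups overlapped (-0.16 ± 0.15, edgeR adjusted p = 0.571). The test of the difference between genotypes gave -0.56 ± 0.21 (edgeR adjusted p = 0.777). Ppt1, which removes palmitate from proteins, fell in WT cells, with 31 and 29.6 CPM in LIF against 51.2, 52.4 and 45 CPM in LIF/2i (log2 -0.71 ± 0.21, edgeR adjusted p = 0.0424). In KI cells Ppt1 was at 25.8 to 39.8 CPM in LIF and 41.4 to 52.4 CPM in LIF/2i (-0.53 ± 0.19, edgeR adjusted p = 0.102). The WT call of Ppt1 was lost without KI LIF/2i replicate 2, KI LIF replicate 2, WT LIF replicate 2 or WT LIF/2i replicate 1 or 2. It was also lost with library totals in place of TMM scaling (edgeR adjusted p = 0.0547) and with no filter on low counts (0.0514).

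Arsa, the sulfatase that degrades sulfatide in myelin lipids, was the member that rose. It was at 16.7 and 18.6 CPM in WT cells in LIF against 5.37, 7.46 and 9.43 CPM in LIF/2i, a log2 fold change of 1.27 ± 0.31 (SE, edgeR adjusted p = 0.0183), which was lost without WT LIF/2i replicate 1 or 2 or WT LIF replicate 2. In KI cells it was at 17, 26.5 and 16.1 CPM in LIF and 10.8, 11.9 and 14.4 CPM in LIF/2i, also without overlap (0.70 ± 0.27, edgeR adjusted p = 0.142). Of the remaining glycosidases, sulfatases and lipid enzymes, none was called, from Gla (-0.57 and -0.56 in KI and WT cells) to the acid sphingomyelinase Smpd1 (0.49 and 0.39) and the glycogen-degrading enzyme Gaa (0.09 and 0.15). Gusb, Man2b1, Manba and Fuca1 lay between -0.53 and -0.05 in KI and -0.34 and -0.10 in WT cells, and the low-count sulfatases Arsb and Sgsh at -0.08 and -0.16 in KI and -1.14 and 0.05 in WT cells.

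Of the 3 soluble activators, 2 fell in both genotypes. Npc2, which hands cholesterol to the membrane protein Npc1, was at 99.3, 97.2 and 71.5 CPM in KI and 90 and 117 CPM in WT cells in LIF, against 186, 177 and 174 CPM in KI and 240, 211 and 152 CPM in WT cells in LIF/2i. Its log2 fold changes were -1.0 ± 0.19 (edgeR adjusted p = 0.0068) and -0.96 ± 0.21 (adjusted p = 0.0119). Grn, the progranulin precursor, was at 182, 193 and 127 CPM in KI and 231 and 243 CPM in WT cells in LIF, against 285, 332 and 322 CPM in KI and 410, 424 and 408 CPM in WT cells in LIF/2i. Its log2 fold changes were -0.90 ± 0.15 (edgeR adjusted p = 0.00371) and -0.81 ± 0.17 (adjusted p = 0.0096), the second lost without WT LIF replicate 2. Psap, the precursor of the saposins that help enzymes reach sphingolipids, was not called by medium (-0.33 ± 0.15 and -0.24 ± 0.17).

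**Figure D2:**
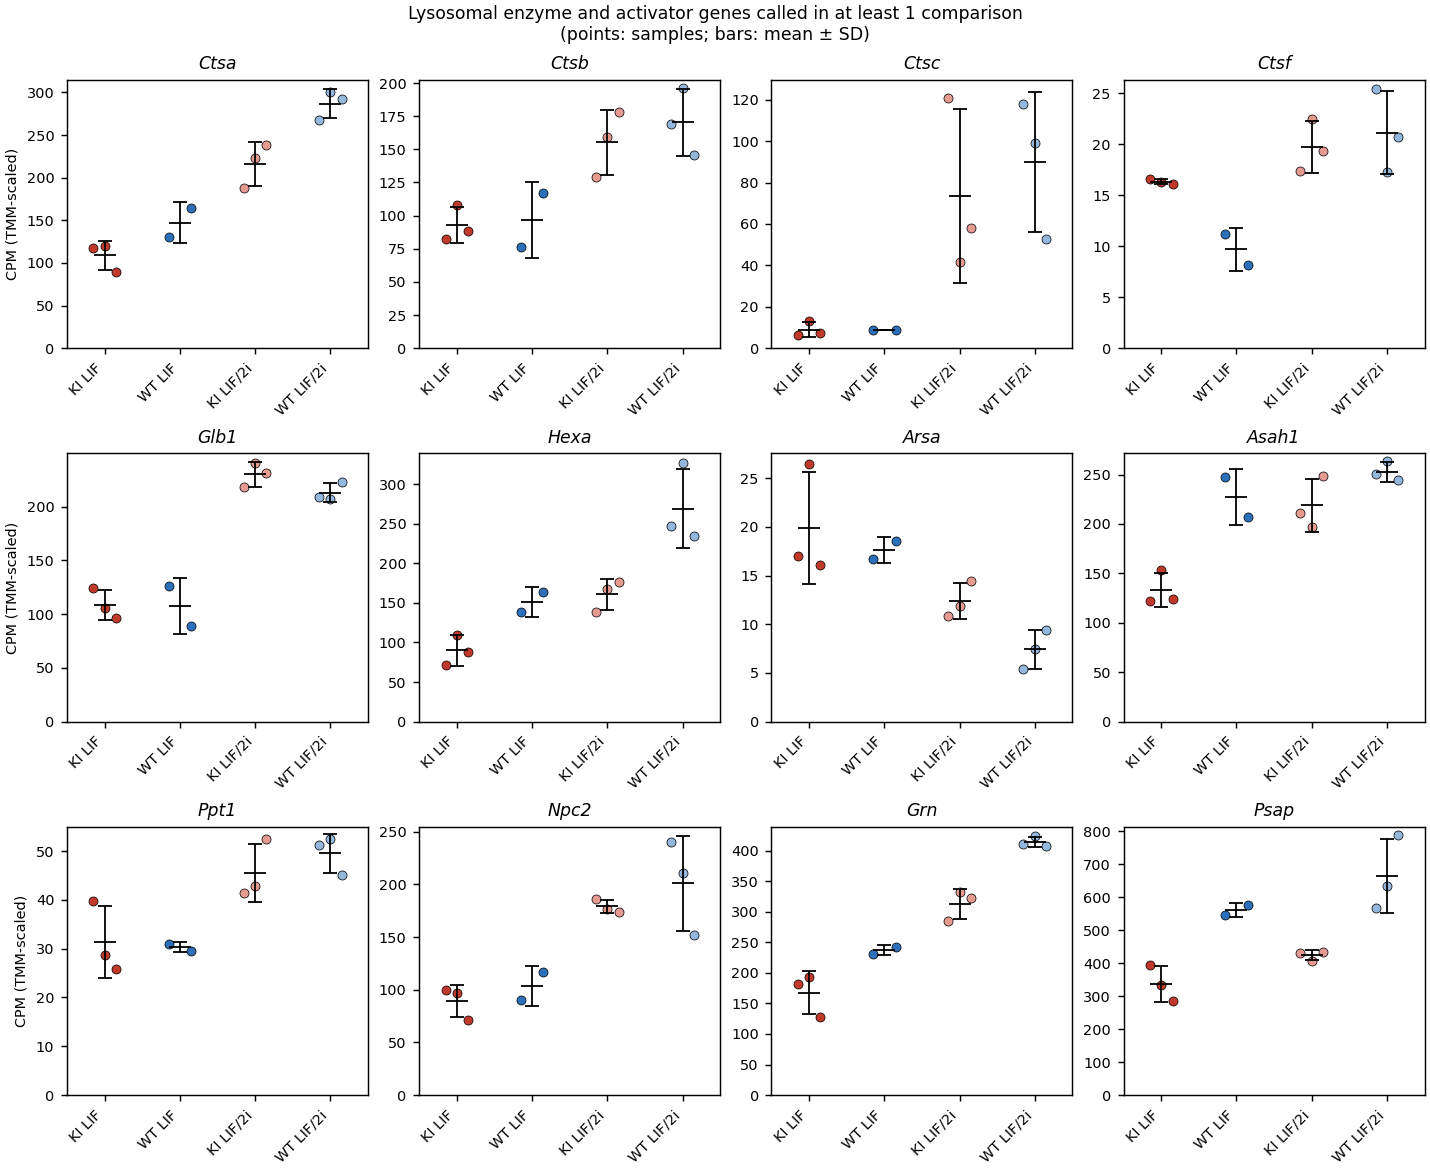
Levels in CPM of the 12 enzyme and activator genes called in at least 1 comparison, in KI LIF, WT LIF, KI LIF/2i and WT LIF/2i samples from left to right. Points are samples and bars are the mean ± SD. Most panels step up between the LIF pair and the LIF/2i pair, and Arsa steps down. Psap, Hexa, Grn and Ctsa also separate KI from WT samples in both media, and Asah1, Arsa and Ctsf in 1 medium.

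Of the 6 membrane proteins, 0 were called by medium in either genotype by edgeR, and 4 in KI and 1 in WT cells had an unadjusted p under 0.05. Of all 13229 tested genes, 3134 in KI and 3633 in WT cells had such a p. Their median log2 fold change was -0.30 in KI and -0.04 in WT cells. DESeq2 called Lamp1, Lamp2 and Cd63 lower in KI cells. Lamp1, the most abundant lysosomal membrane glycoprotein of the set, was at 349, 352 and 297 CPM in KI and 450 and 484 CPM in WT cells in LIF. In LIF/2i it was at 400, 436 and 532 CPM in KI and 438, 487 and 403 CPM in WT cells. The log2 fold change was -0.45 ± 0.14 in KI (SE, edgeR adjusted p = 0.0634) and 0.08 ± 0.15 in WT cells (adjusted p = 0.812), and the KI value was called without KI LIF/2i replicate 1 (-0.54, adjusted p = 0.0436). Lamp2, which takes part in fusion with autophagosomes, stood at -0.80 in both genotypes (adjusted p = 0.0752 and 0.0875), with 45.7 to 56.7 CPM in KI and 53 and 61.1 CPM in WT cells in LIF, against 71.2 to 121 CPM in KI and 65.1 to 124 CPM in WT cells in LIF/2i. Scarb2 was at 89.7 to 103 CPM in KI and 96.9 to 113 CPM in WT cells in LIF, against 57.3 to 74.1 CPM in KI and 75.7 to 133 CPM in WT cells in LIF/2i. The cholesterol exporter Npc1 (-0.16 and -0.15) and Mcoln1 (0.08 and 0.13) lay near 0, and Scarb2, the receptor that carries β-glucocerebrosidase to lysosomes, at 0.52 and 0.13. The tetraspanin Cd63 was low, at 2.77 to 4.66 CPM in KI cells in LIF and 7.2 to 19.3 CPM in KI cells in LIF/2i (-1.60 ± 0.48, adjusted p = 0.0594).

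The regulators went in opposite directions. Tfeb (chromosome 17, 47785720 to 47792415, GRCm38) was at 19.4, 16.7 and 20.7 CPM in KI and 21.5 and 28.6 CPM in WT cells in LIF, against 77.5, 46.4 and 28.9 CPM in KI and 68.4, 39.7 and 42.6 CPM in WT cells in LIF/2i. The LIF samples all lay below the LIF/2i samples, which were spread more widely. Tfeb fell in KI cells (log2 -1.44 ± 0.34, edgeR adjusted p = 0.0216) and was at -1.0 ± 0.37 in WT cells, not past the threshold (adjusted p = 0.0986). The KI call was lost without KI LIF/2i replicate 1 or KI LIF replicate 2 or 3. It was also lost with limma-voom (adjusted p = 0.0688) and with only the groups compared (edgeR, 0.0532). The WT value was called without KI LIF/2i replicate 1 (edgeR adjusted p = 0.0327) or 3 (0.0442). Tfe3 (chromosome X, 7762658 to 7775202) was at 127, 114 and 147 CPM in KI and 85.3 and 84.6 CPM in WT cells in LIF, against 69.4, 98 and 99.7 CPM in KI and 62.4, 62 and 46.2 CPM in WT cells in LIF/2i. Its samples did not overlap between media in either genotype, and the log2 values of 0.54 ± 0.18 and 0.57 ± 0.20 missed the threshold (edgeR adjusted p = 0.0796 and 0.0746). Tfe3 was called in KI cells by DESeq2 (adjusted p = 0.0385) and with library totals (edgeR, 0.0402), and in WT cells with library totals (0.0384), only the groups compared (0.0429), 12 separate libraries (0.0295), the replicate block over 12 libraries (0.0406) or without KI LIF/2i replicate 1 (0.038). Both fits of 12 libraries take the agreeing WT LIF pair as separate samples.

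**Figure D3:**
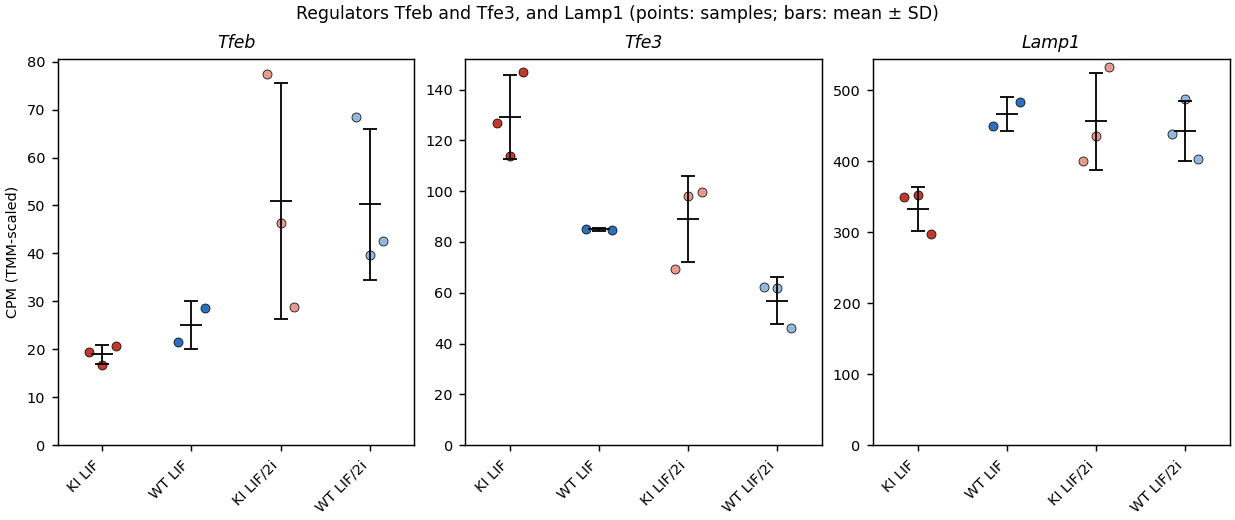
Levels in CPM of Tfeb, Tfe3 and Lamp1 in KI LIF, WT LIF, KI LIF/2i and WT LIF/2i samples from left to right, with points for samples and bars for the mean ± SD. Tfeb is lower and Tfe3 higher in LIF than in LIF/2i, Tfe3 is higher in KI than in WT samples of each medium, and Lamp1 is lowest in KI cells in LIF.

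In KI cells the deviations of same-numbered samples correlated between media (0.51, 0.39 and 0.22 for replicates 1 to 3), and the numbers were treated as pairs; LIF replicate 3 correlated as well with LIF/2i replicate 2 (0.22) as with its own number, and the other differently numbered pairs lay between -0.43 and 0.08. With the replicate number as a block and the KI libraries alone, an alternative chosen after seeing the data, 12 of 35 tested members fell and 2 rose, against 8.22% of 12072 tested genes lower and 8.40% higher, or 16.6% called. The 5 added were Tpp1, Lamp2 and Cd63 (log2 -0.42, -0.75 and -1.46, adjusted p = 0.0442, 0.0265 and 0.0116) and, higher, Scarb2 and Tfe3 (0.54 and 0.56, adjusted p = 0.0329 and 0.0284). Single libraries moved the counts: 5 fell in KI cells without KI LIF replicate 3, and in WT cells 6 fell without WT LIF/2i replicate 1 or 2, with 0 rising in each case. The count over all genes moved with them, to 498 called in KI cells without KI LIF replicate 3, against 1197 in the main fit. Without both agreeing WT LIF libraries 3 fell and 0 rose.

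Markers of other cell types moved with the medium as well. Of 17 primitive endoderm markers, 15 were tested, with 3 rising in KI and 4 in WT cells. Their summed level was 933 to 1120 CPM in KI and 1400 and 1880 CPM in WT cells in LIF, against 411 to 586 CPM in KI and 409 to 689 CPM in WT cells in LIF/2i. Lamb1, Lrp2 and Sparc made up most of it, at 303, 365 and 229 CPM as group means in KI cells in LIF. Gata6, Gata4, Sox17 and Pdgfra reached at most 7.37 CPM as group means. Of 12 trophectoderm markers, 10 were tested, 2 rose and 1 fell in KI and 4 rose in WT cells. Their sum was 253 to 288 CPM in KI and 390 and 513 CPM in WT cells in LIF, against 205 to 279 CPM in KI and 208 to 218 CPM in WT cells in LIF/2i. Tfap2c was its largest part, at 166 and 229 CPM as means of KI and WT cells in LIF. Of 12 fibroblast markers, 9 were tested, 3 rose in KI and 5 in WT cells, and Fn1, which makes up most of their sum, fell in both. In WT cells in LIF the 5 that rose were far higher in replicate 2 than in the merged sample, with Col1a1 at 169 and 13.1 CPM, Col1a2 at 206 and 7.44 CPM and Acta2 at 107 and 12.8 CPM. That sum was 2120 to 2670 CPM in KI and 2020 and 2470 CPM in WT cells in LIF, against 3760 to 4590 CPM in KI and 4520 to 5630 CPM in WT cells in LIF/2i. Among single markers, Elf5 was at 0 in both KI groups and Lum in all groups but WT cells in LIF. Others of the same lists were present. As group means, Hand1 was at 5.8 CPM in KI and 12.1 CPM in WT cells in LIF, against 0.118 and 0.154 CPM in LIF/2i. Eomes was at 7.66 and 18.2 CPM in LIF, against 11.7 and 9.17 CPM in LIF/2i. Col1a2 was at 40 CPM in KI cells in LIF, against 1.16 CPM in KI cells in LIF/2i. The part of these cells in the lysosomal result was not tested, and in bulk RNA fewer cells of a type and less RNA per cell cannot be told apart.

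The rest of the lysosomal system was read from lists of genes that are not members, and most of their counts lie near the shares of all genes called, 5.00% lower and 4.05% higher in KI and 6.65% lower and 6.30% higher in WT cells. The 26 tested hydrolases and activators outside the set had median log2 fold changes, LIF over LIF/2i, of -0.20 in KI and -0.29 in WT cells. Of these 26, 3 fell and 0 rose in KI cells, and 4 fell and 1 rose in WT cells. Besides Gm2a, those that fell included Scpep1 (log2 -0.57 in KI), the nuclease Dnase2a (-0.88 in KI), Aga (-1.11 in WT) and Cpvl (-3.26 in WT). Of 25 other membrane proteins, 1 fell in KI (Tmem192, -1.11) and 3 in WT cells (Ostm1, Slc15a4 and Slc29a3, -1.30, -0.97 and -1.84). The proton pump that acidifies lysosomes had 1 of 17 tested subunits lower in each genotype, Atp6ap2 in KI (-0.75) and Atp6v1a in WT cells (-0.93), with medians of -0.23 and -0.15.

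Sorting genes gave 1 of 23 lower in KI cells (Ap3b1, -0.68), and 1 lower (Vps26a, -0.76) and 3 higher in WT cells (the receptor Sort1 and Hps1 and Cln6, 1.85, 1.06 and 1.36). Of 32 autophagy genes, 4 fell in KI cells, the kinase Ulk1 (-0.69), Atg14 (-1.24), Atg4b (-0.81) and Wipi1 (-1.02), and 1 in WT cells, Atg14 (-1.25). Among 17 tested partners of Tfeb and Tfe3, 1 fell in each genotype. It was Mitf, their relative, at 7.4 ± 4.08 CPM in KI cells in LIF (SD, n = 3) and 7.19 ± 0.546 CPM in WT cells in LIF (n = 2), against 39.6 ± 20 and 32.9 ± 16.3 CPM in KI and WT cells in LIF/2i (n = 3 each), with log2 fold changes of -2.44 ± 0.49 (SE, edgeR adjusted p = 0.00957) and -2.20 ± 0.54 (adjusted p = 0.0194).

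Members with and without CACGTG in the promoter window were set side by side. By medium, the 11 with it had a median log2 fold change of -0.33 in KI and -0.39 in WT cells, and the 22 without it -0.29 and -0.35. With it, 2 fell in KI, and 3 fell and 1 rose in WT cells; without it, 5 fell in each. Between KI and WT cells the medians were -0.10 with it and -0.32 without it in LIF/2i, and -0.07 and -0.16 in LIF. These values are descriptions.

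The comparison of KI with WT cells sets cells whose eIF2α lacks the phosphorylated serine against cells that have it. Other differences between the KI and WT cells cannot be told apart from the mutation. In LIF/2i, 1 of 36 members fell and 0 rose, or 2.78% lower, against 2.21% of all genes called, 1.24% lower and 0.975% higher. In LIF, 0 members were called by edgeR, against 0.144% of all genes called, 0.129% lower and 0.0151% higher. There, 8 of 36 members had an unadjusted edgeR p under 0.05, against 1418 of all 13229 tested genes. In LIF/2i these counts were 11 of 36 and 2717 of 13229. DESeq2 called 2 lower in LIF, Psap and Asah1, and limma-voom 0. The counts over all genes by these methods are given at the end. The members' median log2 fold change was -0.19 in LIF/2i and -0.15 in LIF, against 0.02 and 0.00 over all tested genes, and 28 of 36 lay below 0 in each medium. KI and WT samples did not overlap for 11 of 36 members in LIF/2i (30.6%, against 22.8% of all tested genes) and 14 in LIF (38.9%, against 31.8%), so a lack of overlap was common at these sample numbers.

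**Figure D4:**
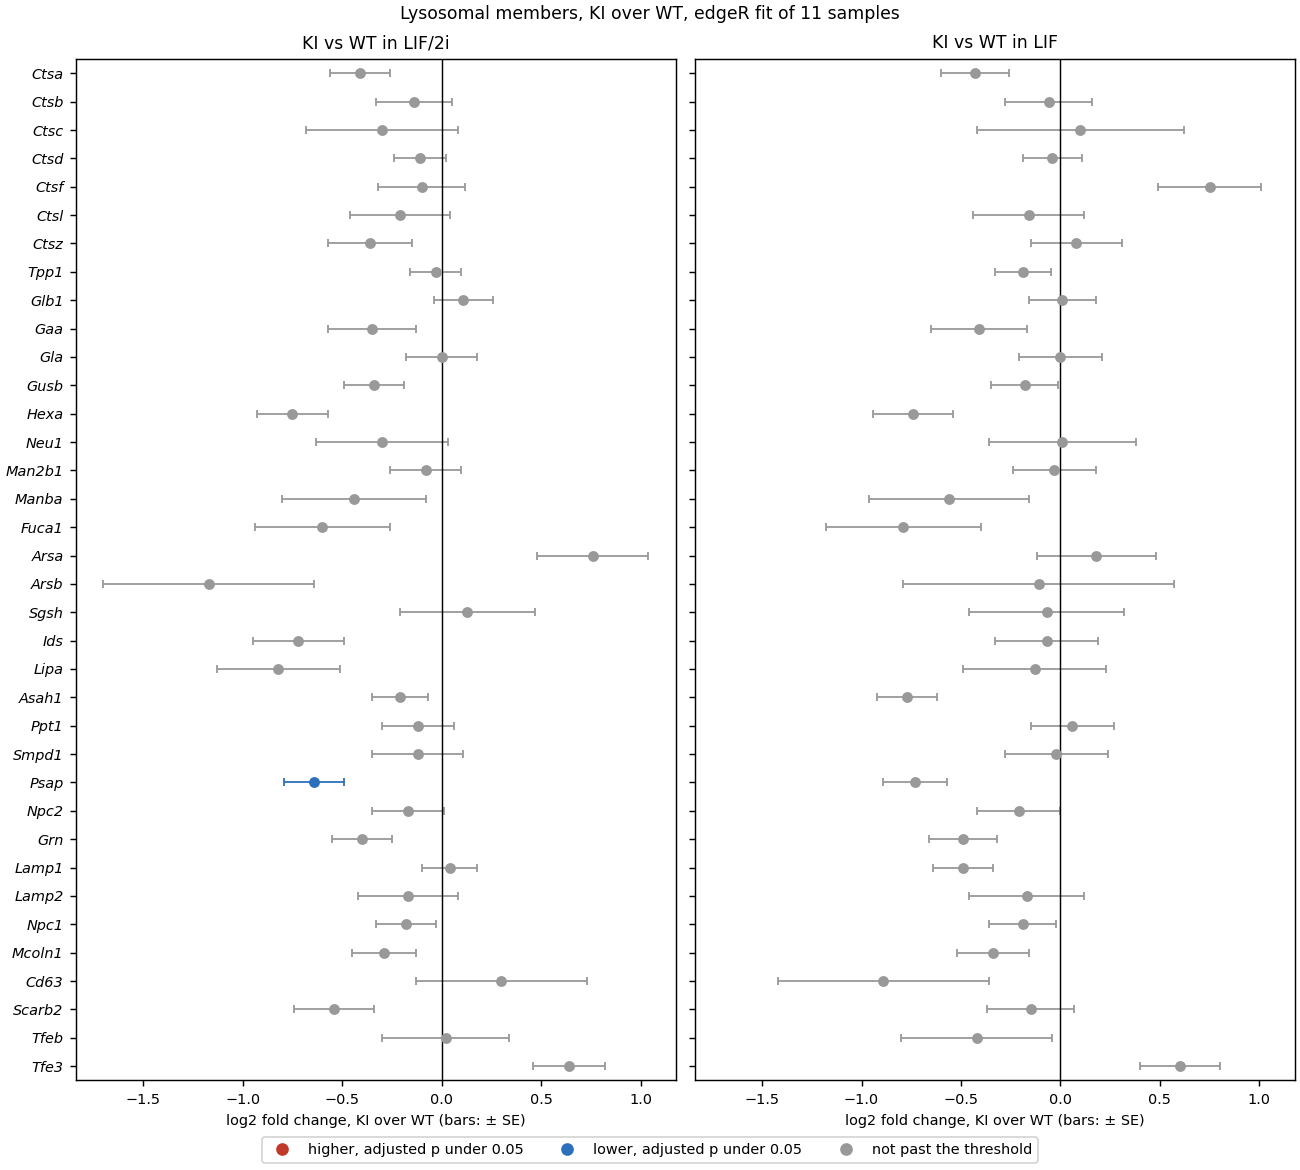
Log2 fold change of each tested member in KI over WT cells, in LIF/2i on the left and LIF on the right, with bars of 1 SE from the edgeR fit. Psap in LIF/2i, the blue point at -0.64, passed adjusted p under 0.05, and grey points did not pass.

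Psap was the member that fell in LIF/2i (chromosome 10, 60277628 to 60302597, GRCm38). It was at 432, 408 and 433 CPM in KI and 568, 635 and 788 CPM in WT cells, with no overlap, a log2 fold change of -0.64 ± 0.15 (SE, edgeR adjusted p = 0.0478). The call was lost without any 1 of the 3 WT LIF/2i libraries, KI LIF/2i replicate 2 or 3, KI LIF replicate 2 or 3, WT LIF replicate 2 or both agreeing WT LIF libraries, with log2 values over all alternatives of -0.76 to -0.51. Library totals in place of TMM scaling (edgeR adjusted p = 0.054) and only the groups compared (0.112) lost the call too. In LIF Psap was at 393, 333 and 285 CPM in KI and 545 and 575 CPM in WT cells, again with no overlap (-0.73 ± 0.16, edgeR adjusted p = 0.121). Counted as 12 separate libraries, the LIF value was called (-0.71, edgeR adjusted p = 0.0358). That fit takes the agreeing WT LIF pair as separate samples, so its spread in WT cells in LIF may be too small.

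In both media and in the same direction, 6 of 36 members had no overlap between genotypes, or 16.7%, against 8.50% of all tested genes. Besides Psap these were Hexa, Grn, Ctsa, Tfe3 and Mcoln1, none past edgeR's threshold. Hexa had 138, 168 and 176 CPM in KI against 247, 326 and 234 CPM in WT cells in LIF/2i (log2 -0.75 ± 0.18, edgeR adjusted p = 0.0567), and 71.7 to 110 CPM in KI against 138 and 164 CPM in WT cells in LIF (-0.74 ± 0.20, adjusted p = 0.213). In LIF/2i it was called by DESeq2 (adjusted p = 0.00545), limma-voom (0.0443) and without KI LIF replicate 1 (0.0405). Grn stood at -0.40 in LIF/2i and -0.49 in LIF, and Ctsa at -0.41 and -0.43, each with adjusted p between 0.156 and 0.389, and Mcoln1 at -0.29 and -0.34 (adjusted p = 0.328 and 0.529). Tfe3 stood above 0, at 0.64 ± 0.18 in LIF/2i (adjusted p = 0.0807) and 0.60 ± 0.20 in LIF (adjusted p = 0.281), and was called in LIF/2i by DESeq2 (0.0334) and without KI LIF/2i replicate 1 (0.77, adjusted p = 0.0205). Tfeb lay at 0.02 ± 0.32 and -0.42 ± 0.38.

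Some members had no overlap between genotypes in 1 medium and an overlap in the other, although the interaction called none of them. In LIF, Asah1 was at 122, 153 and 124 CPM in KI against 247 and 207 CPM in WT cells (log2 -0.77 ± 0.15, edgeR adjusted p = 0.102), whereas in LIF/2i the value was -0.21 ± 0.14. Lamp1 in LIF was at -0.49 ± 0.15 (adjusted p = 0.258), against 0.04 ± 0.14 in LIF/2i. In LIF/2i, the iduronate sulfatase Ids had 14.8, 10.6 and 9.23 CPM in KI against 18.3, 20 and 19.2 CPM in WT cells (-0.72 ± 0.23, edgeR adjusted p = 0.111), whereas in LIF it was at -0.07 ± 0.26. Without KI LIF/2i replicate 1, Ids was called in LIF/2i (-0.97, edgeR adjusted p = 0.0311). Arsa and Ctsf were of the same kind but higher in KI cells. Arsa was at 0.76 ± 0.28 in LIF/2i without overlap (edgeR adjusted p = 0.163), and at 0.18 ± 0.30 in LIF. Ctsf was at 0.75 ± 0.26 in LIF without overlap (edgeR adjusted p = 0.318), and at -0.10 ± 0.22 in LIF/2i. The acid lipase Lipa, with 5.95 to 8.22 CPM in KI and 9.59 to 18.2 CPM in WT cells in LIF/2i, was at -0.82 ± 0.31 there and -0.13 ± 0.36 in LIF, and the glycosidases Fuca1 (-0.60 and -0.79) and Manba (-0.44 and -0.56) varied widely among libraries, Manba being at 387, 214 and 231 CPM in KI and 351, 611 and 164 CPM in WT cells in LIF/2i.

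Outside the set, 3 lysosomal genes fell in KI cells in LIF/2i, 2 of 26 tested hydrolases and activators and 1 of 25 tested membrane proteins. Over all tested genes, 1.24% were lower and 0.975% higher in that comparison. Hgsnat, which acetylates heparan sulfate during its breakdown, was at 44.1 ± 1.91 CPM in KI and 90.1 ± 13 CPM in WT cells (SD, n = 3 each; log2 -1.03 ± 0.15, edgeR adjusted p = 0.00678). Gm2a fell by 1.14 ± 0.26 on the log2 scale (edgeR adjusted p = 0.0478) and Ostm1, a subunit of the lysosomal chloride exchanger, by 1.31 ± 0.22 (adjusted p = 0.013). Rragb, a Rag GTPase that recruits mTORC1 and Tfeb to lysosomes, rose to 21.1 ± 14.3 CPM in KI against 2.07 ± 0.586 CPM in WT cells (3.29 ± 0.59, edgeR adjusted p = 0.0178). It was the 1 gene called of 17 tested partners of Tfeb and Tfe3 in LIF/2i. No proton pump, sorting or autophagy gene was called between genotypes in either medium (0 of 17, 0 of 23 and 0 of 32 by edgeR), with 2, 6 and 1 at an unadjusted p under 0.05 in LIF/2i and 2, 1 and 1 in LIF. Of all 13229 tested genes, 2717 in LIF/2i and 1418 in LIF had such a p. For primitive endoderm markers in LIF, the sums were 933 to 1120 CPM in KI against 1400 and 1880 CPM in WT cells and 15 of 15 tested below 0, of which Lama1 passed the test. In LIF/2i 13 of 15 lay below 0 (median -0.73) and 0 passed by edgeR, with 6 at an unadjusted p under 0.05. Of 10 tested trophectoderm markers, 9 lay below 0 in LIF (median -1.03) and 0 passed by edgeR, with 4 at an unadjusted p under 0.05. Their sums in LIF were 253 to 288 CPM in KI against 390 and 513 CPM in WT cells. In LIF/2i 8 of the 10 lay above 0 (median 0.25) and 0 passed. Of 9 tested fibroblast markers, 7 lay above 0 in LIF/2i (median 1.5), with 3 at an unadjusted edgeR p under 0.05. In LIF 4 of the 9 lay above 0 (median -0.19), and 0 passed in either medium. The part of the cells these markers stand for in the genotype values was not tested.

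The interaction tests whether the change with medium differs between genotypes. It called 0 of 36 members by edgeR, DESeq2 and limma-voom, with 3 at an unadjusted p under 0.05, against 0% of all 13229 genes by edgeR, of which 791 had an unadjusted p under 0.05 and 22 were called by DESeq2. The members' median was -0.01, their smallest adjusted p was 0.777, and their standard errors ran from 0.19 (Tpp1) to 0.87 (Arsb) on the log2 scale. Differences of about the size of these errors were not detectable in single genes. Larger ones, such as Ctsf at 0.85 ± 0.34 and Asah1 at -0.56 ± 0.21, were not called either. The lack of calls therefore does not show that the 2 genotypes changed alike.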

How the data were processed

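The authors deposited 1 table of read counts with a column per library, over the coding sequence of 1 transcript per gene, per the file headers; the values are whole numbers with unequal library totals. Tools listed per the submitters' processing notes, with no role given, were UMI-tools 1.0.1, Bowtie 1.3.0 and cutadapt 3.4; the build, the annotation and the counter were not given in the sources used here. Per the labels' protocols, RNA came from the supernatant of spun lysates, was depleted of ribosomal RNA and fragmented. Reads in UTRs were not counted, and members were not checked for near-identical copies.

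Genes passing filterByExpr (minimum count 10) entered a robust glmQLFit in edgeR 4.0.16 (R 4.3.3) after TMM scaling, whose factors lay between 0.946 and 1.04, with 1 mean per group over 11 samples, after the agreeing WT LIF replicates 1 and 3 were averaged. Tests were two-sided, with Benjamini-Hochberg adjustment over all 13229 tested genes at 0.05. SEs come from the F statistic. The code was tested on simulated data. Positions and coding lengths come from GENCODE M21 (GRCm38), which held 36 of the 37 members' transcripts.

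The members and comparison lists were chosen with earlier results of these data known. Described in full were members called in any comparison and a fixed panel; other genes were named as called members of the comparison lists, of which some are not reported here. Same-numbered KI samples deviated together across media (correlations of deviations 0.51, 0.39 and 0.22, from the data and not the labels), so their numbers were taken as paired, although LIF replicate 3 correlated equally with LIF/2i replicate 2; in each other comparison at least 1 pair was under 0.1. Alternatives were DESeq2 1.42.0, limma-voom (limma 3.58.1), other scalings and filters, a 1.5-fold threshold, only the groups compared, 12 separate libraries, replicate blocks and leaving out libraries.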

Additional observations from a re-analysis of the deposited data

How the results depend on the processing

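Of 20 called member values, 0 changed direction in 469 refits and 69 refits lost the call; 160 values that were not called became called in 57 of 3663. KI against WT in LIF/2i had 1 member called; there were 4 with DESeq2, 2 with limma-voom, no filter, a minimum count of 30, 12 separate libraries or the replicate block, 0 with library totals alone, a 1.5-fold threshold, only the groups compared or without both agreeing WT LIF libraries, and 0 to 3 when 1 library was left out. KI against WT in LIF had 0; there were 2 with DESeq2 or 12 separate libraries, 3 with the replicate block, and the median ran from -0.28 to -0.10 over single left-out libraries. LIF against LIF/2i in KI cells had 9; there were 14 with DESeq2 and with the paired block in KI libraries, 2 against a 1.5-fold change, and 5 to 11 without 1 library; the median was -0.25 with library totals and -0.39 to -0.24 without 1 library. In WT cells it had 10; there were 1 against a 1.5-fold change, 3 without both agreeing libraries and 4 to 12 without 1 library. The interaction median was -0.08 without both agreeing libraries and -0.07 to 0.09 without 1 library. The causes were not tested, except that fewer samples enter when libraries are left out and the 1.5-fold test is stricter. With the agreeing pair left out, WT LIF keeps 1 sample, assumed to vary like the others. Outside the KI medium comparison same numbers do not pair samples, so the replicate block is there a check only. The fits of 12 libraries, with or without the block, take the agreeing WT LIF pair as separate samples. Their added calls may rest on that.

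Counts over all genes moved too. For KI against WT in LIF/2i (293) they were 917 with DESeq2, 60 against a 1.5-fold change, 65 with only the groups compared, 522 and 566 with 12 libraries and the block, 160 without both agreeing libraries and 64 to 996 without 1 library. In LIF (19) they were 206 with DESeq2, 4 against a 1.5-fold change, 31 with only the groups compared, 142 and 174 with 12 libraries and the block, 2 without both agreeing libraries, 11 with limma-voom, 42 with no filter and 1 to 53 without 1 library. For LIF against LIF/2i in KI cells (1197) they were 383 against a 1.5-fold change, 747 with only the groups compared, 2006 with the paired block and 498 to 1337 without 1 library. In WT cells (1714) they were 715 against a 1.5-fold change, 2737 and 2856 with 12 libraries and the block, 766 without both agreeing libraries and 390 to 2167 without 1 library. For the interaction (0), DESeq2 called 22, 12 libraries 1, the block 2, both agreeing libraries left out 1, and 0 to 4 without 1 library. Library totals in place of TMM moved the median of all genes by 0.07 in both medium comparisons. Depth limits low members: Ctsh, Arsb, Cd63 and Sgsh had few counts in KI cells in LIF.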
